A study of Homo sapiens with 2 samples.

Results

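The dual-specificity MAP kinase phosphatases are a family of 10 genes, DUSP1, DUSP2, DUSP4, DUSP5, DUSP6, DUSP7, DUSP8, DUSP9, DUSP10 and DUSP16, taken by symbol from a table of 28615 gene symbols. All 10 had a row of their own and a mean of at least 1 FPKM (fragments per kilobase, a level that allows for transcript length and library size), the level from which a symbol was counted as expressed, as 10143 symbols were. The table's own pathway annotation placed all 10 members in MAPK signaling. The series holds 2 poly(A) RNA-seq libraries of HCT116, an established human colorectal cancer line. One is labelled as an SRD5A1 knockdown and carries the tag Dox, and the other is labelled control and carries the tag KD. The labels explain neither tag, and the sources used here do not give how SRD5A1 was lowered, whether either culture was a clone, or the time of harvest. With 1 library per group there was no test between the groups, and every difference describes these 2 libraries.

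MAP kinases are switched on when a threonine and a tyrosine in their activation loop are phosphorylated, and the dual-specificity phosphatases switch them off by removing both phosphates. Many of the phosphatase genes are themselves transcribed in response to MAP kinase activity, so the family is known as a source of negative feedback. Its members fall into an inducible nuclear group (DUSP1, DUSP2, DUSP4 and DUSP5), a cytoplasmic group selective for ERK (DUSP6, DUSP7 and DUSP9), and a group selective for the stress kinases JNK and p38 (DUSP8, DUSP10 and DUSP16).

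Depth was 54740670 counts for the knockdown library and 41814981 for its control. SRD5A1, the steroid 5-alpha reductase named in the label, was at 6.25 FPKM in the knockdown and 10.8 FPKM in the control. Its difference in log2(FPKM + 1), knockdown minus control, was -0.70, short of the step of 1 used below. Over all expressed symbols, the median of this difference was 0.30, and 11.5% had a lower one than SRD5A1. The share of counts from mitochondrial genes was 12.8% in the knockdown, against 18.3% in the control. The part of these library-wide shifts in the differences below was not tested, except that other library scalings were run. The epithelial markers EPCAM, KRT8, KRT18, KRT19 and CDH1 were expressed in both libraries but not at equal levels. KRT18 was at 346 FPKM in the knockdown and 74.5 FPKM in the control (a difference of 2.20), and EPCAM at 30.2 and 39.7 FPKM (-0.39). KRT8, KRT19 and CDH1 had differences of 0.69, 0.26 and 0.86. The part of these marker differences in the results was not tested. The enterocyte marker VIL1 had 4 counts in the knockdown, against 0 in the control. Summed levels of the other marker lists were 0.117 FPKM in the knockdown and 0.319 in the control for adipocytes (3 of 6 markers in the table), 2.74 and 4.26 for fibroblasts and endothelium (7 markers), and 1.41 and 7.94 for leukocytes (6 markers). The last 2 sums were mostly COL1A1 and CD68, with PTPRC, which defines leukocytes, at 4 counts in the knockdown, against 0 in the control. LPL, DCN, CDH5 and CD3E had 0 counts in both libraries.

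Members of the family differed in both directions, but only the share of lower ones was above that of all expressed symbols. DUSP1, DUSP8, DUSP10 and DUSP5 were lower in the knockdown library by at least 1 in log2(FPKM + 1), which is a 2-fold step on that scale. DUSP6 and DUSP2 were higher by at least 1, and DUSP4, DUSP7, DUSP9 and DUSP16 lay between. Such a lower level was seen in 4 of 10 members against 6.83% of all expressed symbols, and such a higher level in 2 of 10 against 20.9%. In either direction, 6 of 10 members were past this step, against 27.7% of expressed symbols. The members were chosen with earlier results of these data known, so these shares are not those of an unselected set. With the median ratio set to 1, 10.9% of expressed symbols were lower and 12.3% higher, against 4 and 0 of the members. The median difference over the 10 members was -0.07, against 0.30 over all expressed symbols. The direction of all members but DUSP16 was kept under every scaling tried, whereas DUSP2 and DUSP6 were no longer past 1 under some of them.

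**Figure D1:**
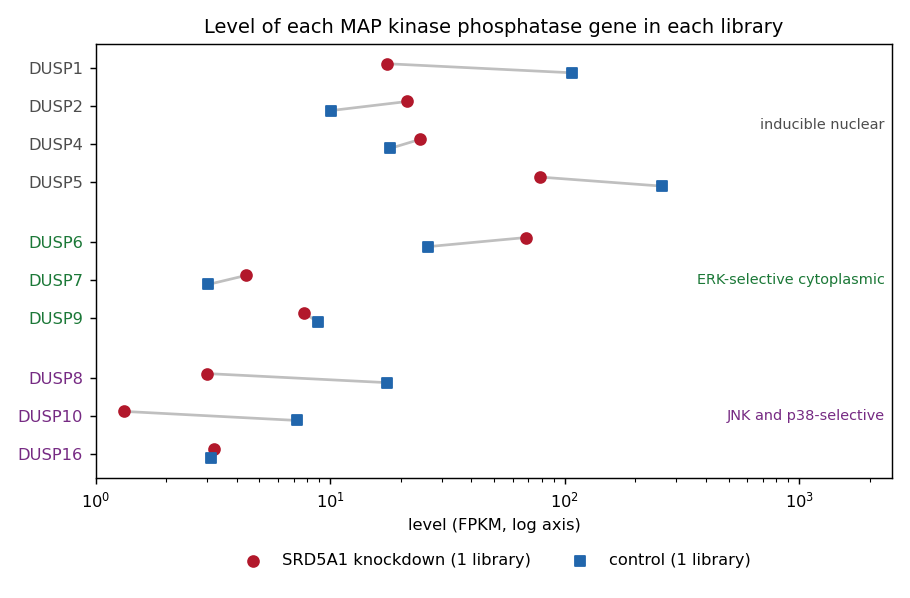
Level of each phosphatase gene in FPKM on a log axis, with the knockdown library as circles and the control library as squares joined by a grey line, grouped by class. DUSP5 was the most abundant member in both libraries, at 78.7 FPKM in the knockdown and 261 FPKM in the control, and DUSP10 the least abundant in the knockdown, at 1.32 FPKM.

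Promoter sequences are shown for DUSP1 and DUSP8, the members with the lowest differences, and for DUSP6, the member with the highest. RefSeq promoter windows on GRCh38.p14, which run from 250 bases before to 50 bases after a transcription start, were at hand for 8 of the 10 members (10 windows, with no window for DUSP4 and DUSP5). The 200 bases before the start are printed 5′ to 3′ on the gene's strand, which is minus for all 3. Capitals mark the full cAMP response element TGACGTCA, its shorter core TGACG and the TATA box TATAAA, each searched on both strands. The cAMP response element is bound by the CREB and ATF family of transcription factors. Every full element also holds the core on both strands.
DUSP1, chr5:172771196-172771395: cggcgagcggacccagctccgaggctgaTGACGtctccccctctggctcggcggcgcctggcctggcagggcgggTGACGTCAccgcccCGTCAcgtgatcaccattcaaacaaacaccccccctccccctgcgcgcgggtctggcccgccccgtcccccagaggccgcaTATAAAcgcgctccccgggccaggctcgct
DUSP8, chr11:1572272-1572471: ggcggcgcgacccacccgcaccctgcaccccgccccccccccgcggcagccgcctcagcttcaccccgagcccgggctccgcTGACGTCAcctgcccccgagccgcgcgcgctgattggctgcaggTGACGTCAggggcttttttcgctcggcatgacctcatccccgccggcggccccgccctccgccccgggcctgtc
DUSP6, chr12:89352502-89352701: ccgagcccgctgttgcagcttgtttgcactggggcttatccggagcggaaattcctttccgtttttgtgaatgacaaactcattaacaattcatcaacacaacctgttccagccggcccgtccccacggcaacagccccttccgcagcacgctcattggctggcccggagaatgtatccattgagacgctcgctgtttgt

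The full element stood once in the DUSP1 window, with its first base 125 bases before the start, and 2 times in the DUSP8 window, at 118 and 74 bases. No other member's window held it, and 1.85% of all 35116 windows did. DUSP1 had the core alone at 172 and 111 bases before the start, and a second, downstream window of DUSP10 had it at 4 bases, while 24.6% of all windows held it. DUSP1 was also the only one of the 8 members whose window held TATAAA, 30 bases before the start, as did 11.5% of all windows. The E-box CACGTG was in the windows of DUSP1 and DUSP2 (7.26% of all), and in DUSP1 it overlapped the core at 111 bases. None of the members' windows held the AP-1 site TGANTCA (7.71% of all), the amino acid response element TGATGNAA (3.62%), the CArG box (1.29%) or the steroid receptor element, which is GNACA and TGTNC with NNN between them (0.39%). The extended ETS motif CCGGAA (17.2%) and the ER stress response element (0.0769%) were in none of them either, and the NF-kappaB site (5.91%) was in that of DUSP9 alone. The shorter ETS core GGAA was not searched, and the printed DUSP6 sequence holds it. The GC box GGGCGG was in 7 of the 8 members (45% of all windows) and CCAAT in 4 of 8 (34.6%). Matches are letters in a window and say nothing of binding. In all, 13 motifs were searched, with the members' values known. Among expressed symbols with a window, 8.57% of the 280 with the full element were lower by at least 1 and 16.1% higher, against 4.74% lower and 22% higher of the 6774 without it. Such a difference was not particular to that element: 9.39% of the symbols with TATAAA were lower, against 4.56% without it, and 9.47% of those with the amino acid response element, which no member's window held, against 4.78% without it. For the core, whether or not within a full element, the shares lower were 5.21% with it and 4.66% without it. Members were not left out of these shares. The symbols with the full element include DUSP1 and DUSP8, those with TATAAA include DUSP1, and those with the core include DUSP1, DUSP8 and DUSP10.

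Among the inducible nuclear phosphatases, 2 were lower and 1 higher. DUSP1 (ENSG00000120129, GRCh38 chromosome 5, 172768096 to 172771195, minus strand) acts in the nucleus on p38, JNK and ERK and is a classical early gene of stress and growth factor responses. It was at 17.5 FPKM (2298 counts) in the knockdown and 107 FPKM (10758 counts) in the control library. The ratio of CPM (counts scaled to 1000000 per library), knockdown over control, was 0.163, with an exact 95% Clopper-Pearson interval of 0.156 to 0.171. Like the others given here, that interval is for counting error alone, and PCR copies among the reads would make it too narrow. On the log2(FPKM + 1) scale the difference was -2.55, and 0.592% of expressed symbols had a lower one. In bulk RNA, fewer cells with a transcript and less of it per cell cannot be told apart.

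DUSP5 (ENSG00000138166, chromosome 10, 110497907 to 110511533, plus strand) inactivates ERK and holds it in the nucleus. The gene was at 78.7 FPKM (13039 counts) in the knockdown and 261 FPKM (33013 counts) in the control. Its CPM ratio was 0.302 (0.296 to 0.308) and its log2(FPKM + 1) difference -1.72. Even so it ranked first of the family in both libraries, above 95.1% of expressed symbols in the knockdown and 98.4% in the control.

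DUSP2 (ENSG00000158050, chromosome 2, 96143169 to 96145440, minus strand), first known from activated lymphocytes and active on ERK and p38, was on the other side. It had 21.3 FPKM (2687 counts) in the knockdown and 10.1 FPKM (971 counts) in the control, a CPM ratio of 2.11 (1.96 to 2.28). Its difference of 1.01 lay close to the 2-fold line. It stayed past the line with the smaller pseudocounts and with log2(CPM + 1), and fell short of it, at 0.63 to 0.92, with each other library scaling and without the trend in GC content and length. DUSP4 (ENSG00000120875, chromosome 8, 29333064 to 29350684, minus strand), which acts on ERK and JNK, was at 24.3 FPKM (11525 counts) in the knockdown and 18.1 FPKM (6554 counts) in the control. Its CPM ratio was 1.34 (1.3 to 1.38) and its difference 0.41, close to the median of 0.30 over all expressed symbols.

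Of the cytoplasmic ERK phosphatases, DUSP6 was higher in the knockdown library and DUSP7 and DUSP9 lay between. DUSP6 (ENSG00000139318, chromosome 12, 89347235 to 89352501, minus strand) binds ERK in the cytoplasm, and its transcription is a widely used readout of ERK activity. Its level was 68.3 FPKM (17212 counts) in the knockdown and 26.2 FPKM (5053 counts) in the control. The CPM ratio was 2.60 (2.52 to 2.69) and the log2(FPKM + 1) difference 1.35, higher than in 88.2% of expressed symbols. With the median ratio set to 1 the difference was 0.97, and with the upper quartile 0.96, both short of the 2-fold line. An antisense transcript, AC024909, overlaps DUSP6 by 1487 bases and had 608 counts in the knockdown, against 201 in the control. The sources used here do not say whether counting used strand, so reads of the pair may not be told apart.

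DUSP7 (ENSG00000164086, chromosome 3, 52048919 to 52056571, minus strand) had 4.4 FPKM (1630 counts) in the knockdown and 3.03 FPKM (858 counts) in the control. Its CPM ratio was 1.45 (1.34 to 1.58) and its difference 0.42. DUSP9 (ENSG00000130829, chromosome X, 153642492 to 153651326, plus strand), known for its role in the placenta, had 7.78 FPKM (1408 counts) in the knockdown and 8.88 FPKM (1227 counts) in the control. The CPM ratio of DUSP9 was 0.877 (0.811 to 0.947) and its difference -0.17. Both are selective for ERK, as DUSP6 is, and they stood on either side of 0 with differences under 0.5 in size.

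In the group selective for JNK and p38, DUSP8 and DUSP10 were lower and DUSP16 was close to 0. DUSP8 (ENSG00000184545, chromosome 11, 1554051 to 1572271, minus strand) had 3.0 FPKM (973 counts) in the knockdown and 17.5 FPKM (4341 counts) in the control. The CPM ratio was 0.171 (0.160 to 0.184) and the difference -2.21. Reads of DUSP8 can be split with its pseudogene copies. The copy DUSP8P5 had 57 counts in the knockdown, against 16 in the control, and DUSP8P3 had 0 and 8, small numbers beside those of DUSP8. The antisense gene KRTAP5-AS1, which overlaps DUSP8 by 919 bases, had 13 counts in the knockdown, against 25 in the control.

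DUSP10 (ENSG00000143507, chromosome 1, 221701424 to 221742089, minus strand) had 1.32 FPKM (245 counts) in the knockdown and 7.22 FPKM (1019 counts) in the control. Its CPM ratio was 0.184 (0.159 to 0.211). The difference in log2(FPKM + 1) was -1.82, and since the added 1 weighs on a level this low, it came to -2.37 with a pseudocount of 0.1. DUSP16 (ENSG00000111266, chromosome 12, 12474210 to 12562383, minus strand), which shuttles between nucleus and cytoplasm and prefers JNK, had 3.20 FPKM (1197 counts) in the knockdown and 3.12 FPKM (892 counts) in the control. The CPM ratio was 1.03 (0.939 to 1.12), the only one in the family whose interval included 1. Its difference of 0.03 turned to between -0.27 and -0.04 under the 4 other library scalings (the median ratio set to 1, TMM, the upper quartile, and mitochondrial genes left out of the total).

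**Figure D2:**
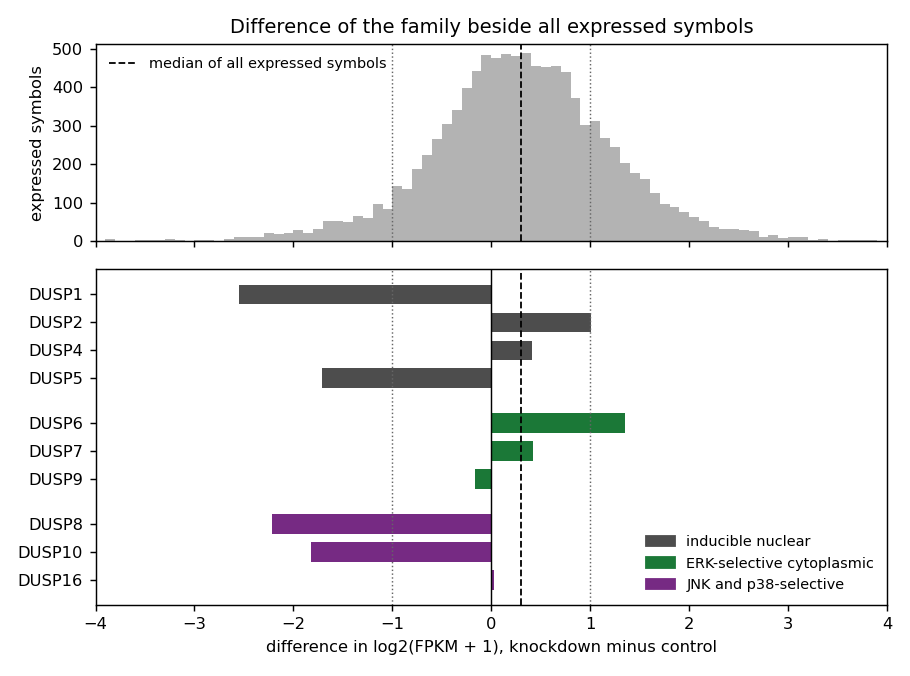
Differences in log2(FPKM + 1), knockdown minus control, for all 10143 expressed symbols as a histogram (top) and for the 10 phosphatase genes as bars coloured by class (bottom). The dashed line is the median of all expressed symbols at 0.30 and the dotted lines mark -1 and 1. DUSP1, DUSP5, DUSP8 and DUSP10 reach past -1, DUSP6 and DUSP2 past 1.

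Because levels per length can be added within a library, shares of the family can be set side by side with no library scaling. Sums in FPKM, when set side by side, do depend on it. The 10 genes summed to 229.7 FPKM in the knockdown and 462 FPKM in the control, a ratio of 0.497 that fell to 0.377 at the lowest of the other scalings. By counts, they took 0.0954% of the counts in the knockdown (exact 95% interval 0.0946% to 0.0962%) and 0.155% in the control (0.154% to 0.156%). The inducible nuclear group summed to 142 FPKM in the knockdown and 396 FPKM in the control, or 61.7% and 85.7% of the family. The ERK-selective cytoplasmic group summed to 80.4 FPKM in the knockdown and 38.1 FPKM in the control, or 35% and 8.25%. DUSP6 alone gave 68.3 FPKM of that sum in the knockdown and 26.2 FPKM in the control, while DUSP7 and DUSP9 differed little. The JNK and p38 group was the smallest, at 7.52 FPKM in the knockdown and 27.9 FPKM in the control, or 3.27% and 6.03%. Over the library scalings, the ratio of sums, knockdown over control, was 0.272 to 0.358 for the inducible nuclear group. It was 1.60 to 2.11 for the ERK-selective group and 0.205 to 0.270 for the JNK and p38 group.

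Single members held different places within the family. DUSP6 made up 29.7% of the summed level in the knockdown and 5.68% in the control, and its rank by level was 2 in the knockdown and 3 in the control. DUSP1 made up 7.60% in the knockdown and 23.2% in the control, and its rank was 5 in the knockdown and 2 in the control. DUSP5 made up 34.3% in the knockdown and 56.5% in the control. The ratio of DUSP6 to DUSP5 was 0.867 in the knockdown and 0.101 in the control, and that of DUSP6 to DUSP1 was 3.91 in the knockdown and 0.245 in the control. DUSP16 was above DUSP10 in the knockdown, at a ratio of 2.43, and below it in the control, at 0.432. The ratio of DUSP8 to DUSP10 was nearly the same in both, at 2.27 in the knockdown and 2.43 in the control.

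**Figure D3:**
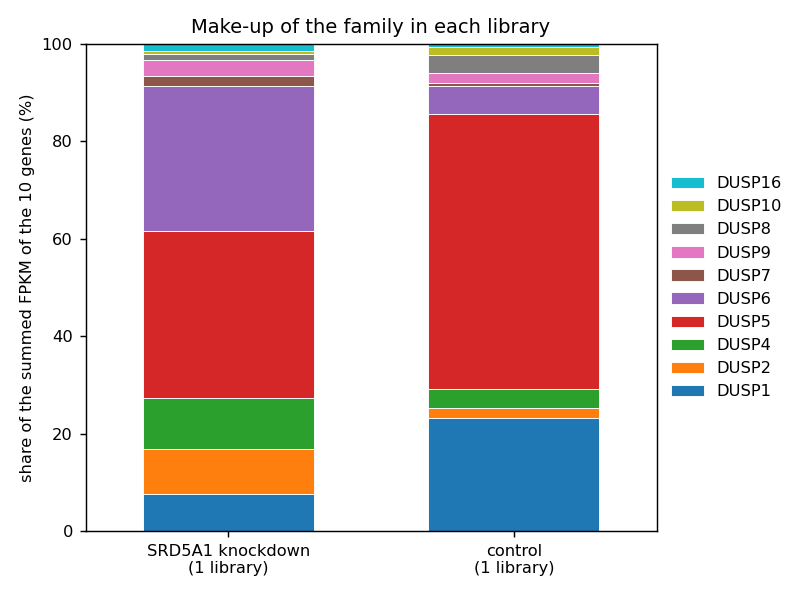
Share of each gene in the summed FPKM of the 10 phosphatase genes, as stacked bars for the knockdown library (left) and the control library (right). DUSP5 and DUSP6 make up 34.3% and 29.7% of the knockdown bar, while DUSP5 and DUSP1 make up 56.5% and 23.2% of the control bar.

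Transcript length and GC content overlapped between the lower and the higher members. The longest annotated transcripts of the 4 lower members were 2019 bases (DUSP1), 2557 (DUSP5), 4480 (DUSP8) and 2676 bases (DUSP10), with GC contents of 55.1%, 55.9%, 64.6% and 45.6%. The higher members had 4400 bases and 46.7% GC (DUSP6) and 1688 bases and 63.9% GC (DUSP2). With a trend in GC content and length removed, the differences of the 4 lower members ranged from -2.72 to -1.82, that of DUSP6 was 1.35 and that of DUSP2 0.82.

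Among the MAP kinases, shares past the 2-fold lines were near those of all expressed symbols. Of 12 expressed MAP kinases, 3 were higher by at least 1 (25%) and 1 lower (8.33%), against 20.9% and 6.83% of all expressed symbols. Their median was 0.09 (-0.16 to 0.96 over the settings run), and between 0 and 3 were higher over those settings. The higher ones were all p38 isoforms, MAPK13 at 10.9 FPKM in the knockdown and 3.75 in the control, MAPK14 at 5.19 and 1.51, and MAPK11 at 8.87 and 3.50. The fourth p38 gene, MAPK12, was short of the line at 8.50 FPKM in the knockdown and 4.47 in the control (0.80). MAPK14 and the lower MAPK6 (0.851 FPKM in the knockdown, 4.12 in the control) are named after their values were seen. The ERK gene MAPK3 was well within the lines, at a difference of -0.33, and the JNK genes MAPK8 and MAPK9 were at -0.25 and -0.16. Among 6 expressed MAP kinase kinases, MAP2K3, which activates p38, was the 1 past the 2-fold line, at 19.1 FPKM in the knockdown and 76.3 FPKM in the control (-1.94). MAP2K1, which activates ERK, was at -0.58, while MAP2K7, which activates JNK, and MAP2K2 were at 0.26 and 0.11.

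Further up the cascade, none of 8 expressed RAS, RAF and adaptor genes was past 1 in either direction (median 0.25, -0.11 to 0.27 over the settings, in some of which 1 was lower). HRAS was at 0.91, the adaptor GRB2 at 0.81, ARAF at -0.07 and NRAS at -0.86. Of 9 expressed MAP kinase kinase kinases 1 was higher (MAP3K6, 1.25, named after its value was seen) and 0 lower (between 0 and 2 over the settings), with MAP3K11 at 0.87, TAOK2 at 0.46 and MAP3K3 at -0.92. Downstream, 2 of 8 expressed MAPK-activated kinases were higher, MAPKAPK3 at 39.0 FPKM in the knockdown and 9.92 FPKM in the control (1.87) and RPS6KA4 at 1.09, and 0 were lower, with MKNK2 at -0.86 and MAPKAPK2 at -0.17. The median of that list was 0.25 (-0.04 to 0.38 over the settings), and with the median ratio set to 1, TMM, the upper quartile or the GC and length trend removed 1 was higher and 1 lower. Over the 154 other expressed genes that the deposited table annotates to MAPK signaling, the median was 0.15, and 14.9% were higher and 12.3% lower. Of all expressed symbols 20.9% were higher and 6.83% lower.

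Expressed ERK output and feedback genes other than DUSP6 had shares past 1 near those of all expressed symbols. Of these 12 genes, 3 were higher (25%) and 1 lower (8.33%), against 20.9% and 6.83% of all expressed symbols. The list's median was 0.65 (0.34 to 0.78 over the settings, with between 2 and 5 higher), against 0.30 over all expressed symbols. PHLDA1 was at 52.9 FPKM in the knockdown and 14.2 FPKM in the control (1.83), the cyclin CCND1 at 70.6 and 19.6 (1.79), and the feedback inhibitor SPRY4, named after its value was seen, at 21.4 and 9.87 (1.04). EGR1, an early transcription factor, was at 131 FPKM in the knockdown and 438 FPKM in the control (-1.73), and FOSL1 at -0.86. The list of immediate early transcription factors, many of which are induced within minutes of a stimulus as DUSP1 is, had 5 of 15 genes lower (33.3%) and 0 higher. Of all expressed symbols 6.83% were lower and 20.9% higher. The median of the list was -0.79 (-1.18 to -0.79 over the settings, with between 5 and 8 lower). With the upper quartile 8 of the list were lower, against 11.3% of expressed symbols. EGR1 and FOSL1 are on this list and on that of ERK output and feedback genes, so EGR1 counts as lower in both. This list too was chosen with earlier results of these data known. Besides EGR1 the lower early factors as reported were ATF3 (7.14 FPKM in the knockdown, 50.7 in the control, -2.67), KLF6 (-1.75), JUN (-1.47) and JUND (-1.23). Of these JUN and JUND are named after their values were seen. FOS was at 46.5 FPKM in the knockdown and 81.0 FPKM in the control (-0.79), MYC at 0.88 and FOSL2 at 0.43.

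Phosphatases outside the family lay mostly between the 2-fold lines, as did 7335 of all 10143 expressed symbols. Of all expressed symbols 20.9% were higher and 6.83% lower. Of 10 expressed atypical dual-specificity phosphatases, most of which lack the kinase-binding domain of the family, 1 was higher and 0 lower (median 0.55, 0.12 to 0.78 over the settings). STYXL1, a catalytically inactive relative, was at 12.5 FPKM in the knockdown and 2.67 FPKM in the control (1.88), and the cofilin phosphatase SSH3 was at 0.92. DUSP3 and DUSP12 were at -0.10 and -0.18. None of 5 other expressed phosphatases that act on MAP kinases was past 1 (median -0.31, -0.53 to -0.02 over the settings, in some of which 1 was lower), among them PPP2CB at -0.94 and PPP2CA close to 0. Among 6 proteins that bind AU-rich elements, which occur in short-lived messages such as that of DUSP1, ZFP36 was lower (23.7 FPKM in the knockdown, 70.4 in the control, -1.53), while its paralogues ZFP36L2 (1.33) and ZFP36L1 (1.06) were higher, though neither was past 1 with the upper quartile or the median ratio set to 1. ELAVL1 was at -0.04.

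**Figure D4:**
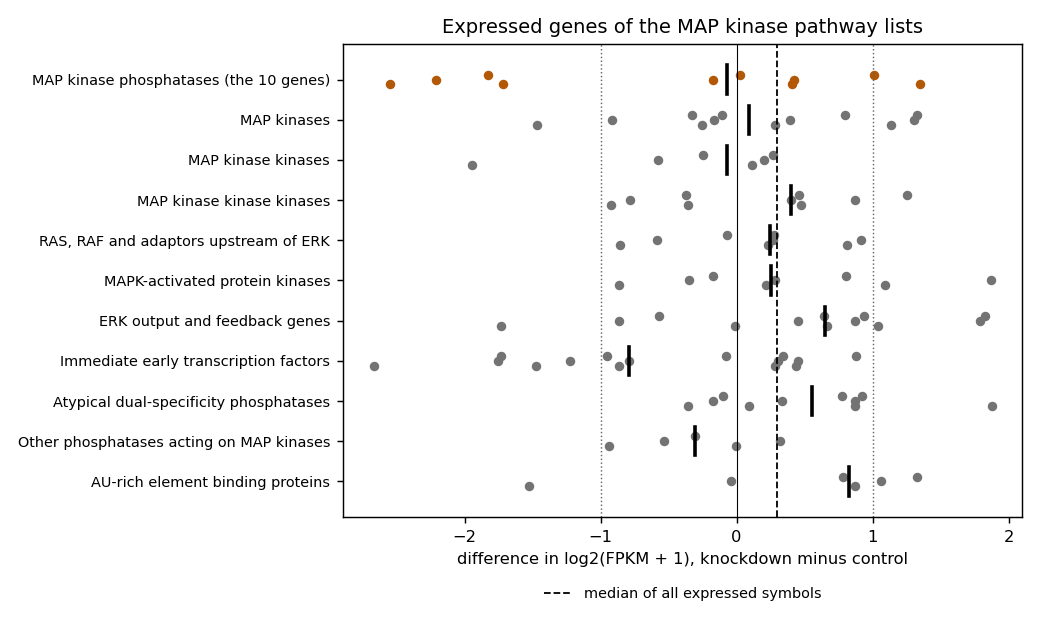
Difference in log2(FPKM + 1), knockdown minus control, of each expressed gene (points) in the family and in 10 lists of the MAP kinase pathway, with the list's median as a black bar. The dashed line is the median of all expressed symbols and the dotted lines mark -1 and 1. The family spans -2.55 to 1.35 with a gap between -1.72 and -0.17, and 5 immediate early factors lie past -1.

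**Figure D5:**
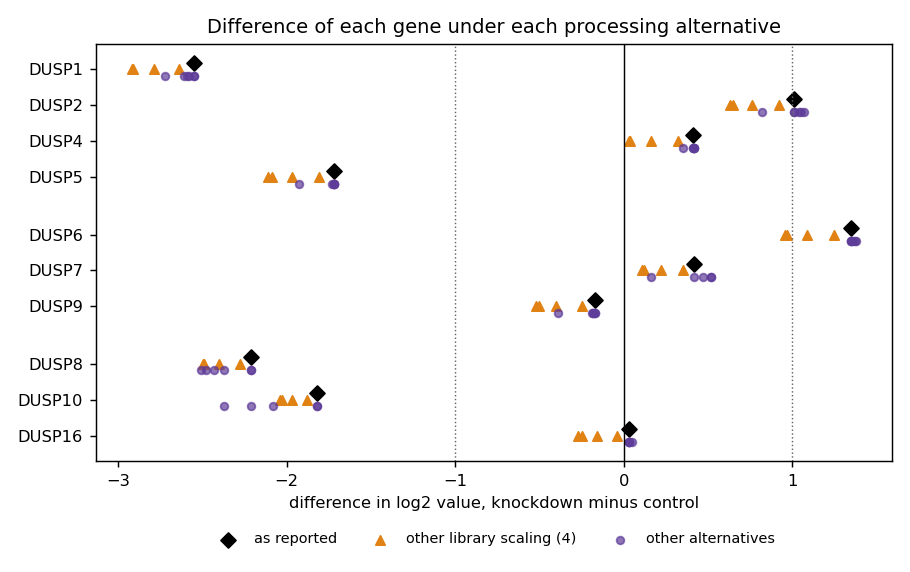
Difference of each gene, knockdown minus control, as reported (diamonds), under 4 other library scalings (triangles) and under the other alternatives (circles), with dotted lines at -1 and 1. DUSP1, DUSP5, DUSP8 and DUSP10 stay below -1 in every setting run for them, while DUSP2 and DUSP6 range from 0.63 to 1.07 and from 0.96 to 1.38.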

How the data were processed

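Groups were taken from the genotype label of each sample, and columns were matched by the tags in the titles. One table of 31798 rows was deposited by the authors, with FPKM values and raw counts for every gene. The tools named, per the submitters' processing notes, are StringTie 1.3.0, HISAT2 2.0 and Bowtie 0.12.2, whose roles are not stated, and the build is mm8, of the mouse. The identifiers are human, and 69.3% of the rows found in GENCODE release 29 (GRCh38) match its positions, so GRCh38 is used here. Which program counted, and whether by strand, is not given in the sources used here. FPKM values were summed by symbol, 1 was added and log2 differences were taken (Python 3.11.15, pandas 2.3.3). CPM ratios from the deposited counts carry exact intervals (scipy 1.17.1), and TMM factors came from edgeR 4.0.16. The floor for a count of 0 is 3 counts, which is 0.0548 CPM for the knockdown library and 0.0717 CPM for the control library. A trend cubic in GC content and log2 length (longest GENCODE transcript) was removed in one alternative. Data were simulated for 10116 genes with counting error alone (Poisson draws) and no spread between cultures. In them, 100% of genes set 4-fold higher but 85% of those set 4-fold lower passed the 2-fold step, since the added 1 shrinks low values. By the ratio of counts, 100% of both passed. The simulation does not show how reliable a difference between 2 real cultures is. Genes named from each list were those with the 2 highest and 2 lowest differences at a mean of at least 5 FPKM, and others were named to complete a count or to give ERK and JNK genes and early factors. Members and lists were chosen with earlier results of these data known. Alternatives are given in the closing section.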

Additional observations from a re-analysis of the deposited data

How the results depend on the processing

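The 4 lower members stayed lower by at least 1 in the 8 alternatives that can move a member's difference. The other 2 alternatives change only which symbols are counted, and DUSP10 dropped out under the stricter filter (mean FPKM of 5), which left 3. The number of members higher by at least 1, which was 2, fell to 1 with TMM, with mitochondrial genes left out of the total, or after the trend in GC content and length was taken out. It was 0 with the median ratio set to 1 or with the upper quartile. The members' median of -0.07 became -0.38, -0.28 and -0.39 with the median ratio set to 1, TMM and the upper quartile. Those scalings also moved the median of all expressed symbols from 0.30 to close to 0, to 0.09 and to -0.02, and the share of higher symbols among those past 1 from 75.3% to 52.9%, 60.9% and 51.6%. With the upper quartile, 11.3% of expressed symbols were lower, against 6.83% as reported. Of 80 values of single members under those 8 alternatives, 35 stayed within counting error and 45 moved beyond it, and only DUSP16 changed sign. No paired analysis was possible because each group has 1 library. The spread between cultures is unknown, and counting intervals do not cover it.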
